A study of Caenorhabditis elegans with 12 samples.

Results

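The genes of glycolysis, gluconeogenesis, the pyruvate dehydrogenase complex, the tricarboxylic acid (TCA) cycle and the glyoxylate cycle were followed through 4 genotypes of the nematode Caenorhabditis elegans. The set was defined by enzyme function, with 44 named genes, all 44 of which are in the deposited matrix of 14326 genes. Of these, 9 encode enzymes from hexokinase to triosephosphate isomerase and 10 encode enzymes from glyceraldehyde-3-phosphate dehydrogenase to lactate dehydrogenase. Gluconeogenesis is represented by 4 genes, the pyruvate dehydrogenase complex by 4, the TCA cycle by 14, the NADP-dependent isocitrate dehydrogenases by 2 and the glyoxylate cycle by icl-1. The 14 counted under the TCA cycle include cytosolic mdh-1 beside mitochondrial mdh-2. All 44 passed the expression filter in every comparison, and the scarcest of them, pfk-1.2, still had 21 reads in its lowest library.

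RNA came from whole worms, described in the labels as prefertile young adults, kept at 20 °C on agar plates seeded with OP50 Escherichia coli. The 4 groups, of 3 libraries each, were wild type, isp-1, isp-1;sod-3 (here called sod-3 doubles) and isp-1;sod-5 (here sod-5 doubles). ISP-1 is the iron-sulphur (Rieske) subunit of complex III of the respiratory chain, and isp-1 mutants are known for slow respiration and long life. The products of sod-3 and sod-5 are superoxide dismutases, mitochondrial for sod-3 and cytosolic for sod-5. Both double mutants carry the isp-1 mutation, so wild type is the only group without it. The labels name no alleles. The design text describes 9 isolates per genotype combined 3 to a library, whereas the pooling label of each library says none, so p-values measure the spread between libraries, which may be partly technical.

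Glycolysis breaks glucose down to pyruvate and yields ATP without respiration, and lactate dehydrogenase lets it continue by returning NADH to NAD. Gluconeogenesis runs the same route backwards around its irreversible steps, with pyruvate carboxylase, phosphoenolpyruvate carboxykinase and fructose-1,6-bisphosphatase. The TCA cycle oxidises acetyl-CoA and hands its electrons to the respiratory chain, of which complex III is a part. C. elegans, unlike mammals, also has a glyoxylate cycle, which skips the carbon-losing steps of the TCA cycle so that carbohydrate can be made from stored fat.

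The libraries held 5438798 to 155071752 reads in genes, and levels are given as CPM, the reads of a gene per 1000000 reads in genes. Replicate 3 of sod-5 doubles stood apart from the rest: ribosomal RNA genes took 0.368% of its reads against 1.82% to 7.18% elsewhere, and its values fell by 0.22 on the log2 scale for each doubling of exon length, where the slopes of the other 11 libraries lay between -0.02 and 0.06. Several results that rest on it are given also without it. The sod-3 transcript was at 1.68 to 2.60 CPM in wild type and 18.6 to 20.7 CPM in isp-1. In sod-3 doubles it was at 0.148, 1.47 and 1.74 CPM, a range that overlaps wild type. The sod-5 transcript was at 0.115 to 0.616 CPM in isp-1, 0.832 to 1.61 CPM in sod-3 doubles and 0 to 0.35 CPM in sod-5 doubles. For sod-5 the ranges of isp-1 and sod-5 doubles overlap. Every gene of 8 tissue marker lists was detected in every library. The summed marker levels of body wall muscle (9359.6 to 11042 CPM in wild type, 7967 to 8770.1 in isp-1), pharynx (541 to 643 and 342 to 405) and intestine (3823 to 3932 and 2791 to 2997) were lower in isp-1, and that of hypodermis was higher (1454 to 1488 and 1562 to 1722). The hypodermis sum is mostly col-19 (1213 to 1292 and 1490 to 1653 CPM). Its rol-6, bli-1 and col-10 were lower in isp-1 without overlap, and dpy-7 overlapped. The intestine sum is mostly asp-1 (2657 to 2790 and 1625 to 1817 CPM). Its ges-1 and vha-6 were higher in isp-1 without overlap, and elt-2, cpr-6 and ifb-2 overlapped. These 2 sums therefore do not describe their lists as a whole. In whole worms, fewer cells of a type and less RNA per cell cannot be told apart, and the part that these tissue levels had in the results was not tested.

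In isp-1, part of the glycolytic enzymes from glucose-6-phosphate isomerase to lactate dehydrogenase, most of gluconeogenesis and the glyoxylate enzyme rose, while the pyruvate dehydrogenase complex and most of the TCA cycle gave no call. Against wild type, 14 of the 44 genes rose and 2 fell at an adjusted p below 0.05 (limma, Benjamini-Hochberg adjustment over 14013 genes). Among all genes tested, 20.0% were called, 9.60% as higher and 10.4% as lower. The median log2 fold change of the 44 genes was 0.18, against 0.01 over all genes tested, and 37 of the 44 were above 0. Of all 14013 genes tested, 7125 were above 0. The isp-1 libraries lay wholly above those of wild type for 23 of the 44 genes and wholly below for 5, and overlapped for 16. Of all genes tested, 26.0% lay wholly above and 25.7% wholly below. The calls were 4 higher and 1 lower of 9 in upper glycolysis, 5 higher and 1 lower of 10 in lower glycolysis, 3 higher of 4 in gluconeogenesis, 0 of 4 in the pyruvate dehydrogenase complex, 1 higher of 14 in the TCA cycle, 0 of 2 among the NADP-dependent isocitrate dehydrogenases, and icl-1. The count of 16 was 10 without wild type replicate 1 or 2, or without any of the 3 isp-1 libraries. Over all genes tested, 2798 were called with every library, and 1225, 1177, 1111, 2158 and 1088 in these fits, in the order named. In 9 genes (aldo-1, gpd-2, gpd-3, ipgm-1, enol-1, ldh-1, pck-1, pck-2 and icl-1) the call held under all 26 alternative settings. With ribosomal RNA genes taken out of the library totals, the split was 16 higher and 0 lower. Of all genes, 1669 were then higher and 1351 lower.

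**Figure D1:**
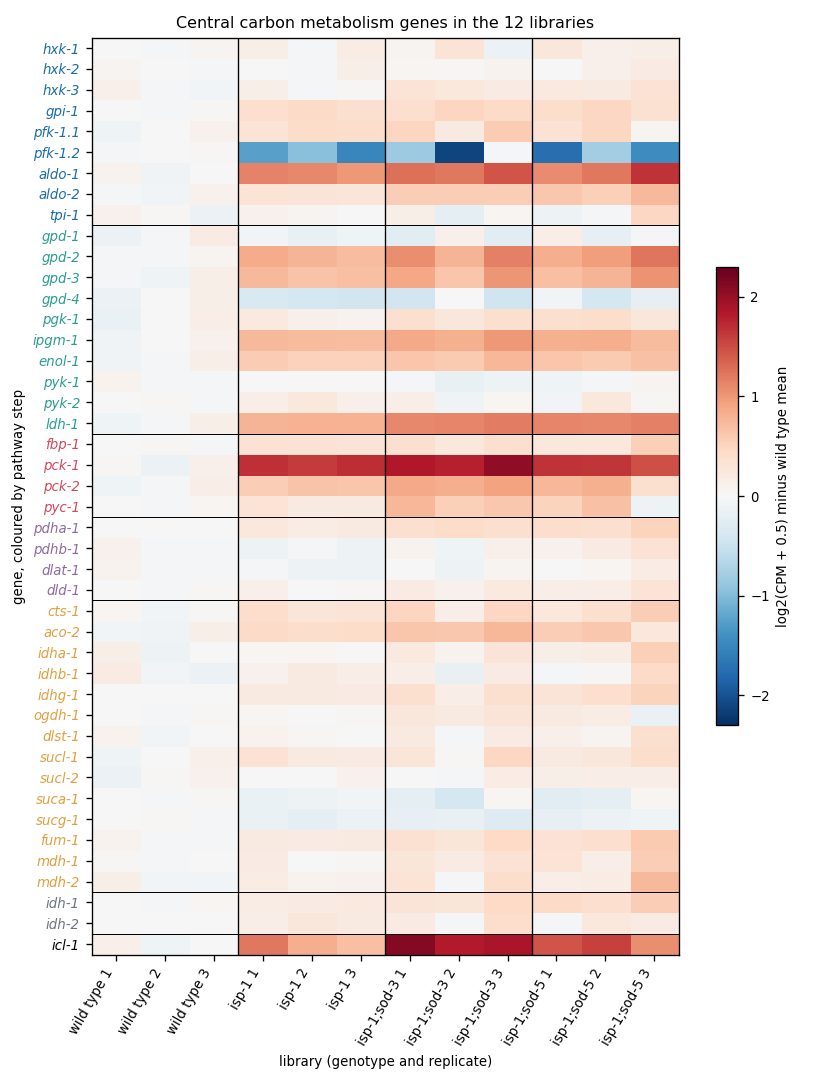
Each row is a gene, grouped by pathway step, and each column is a library; colour shows log2(CPM + 0.5) minus the wild type mean of that gene. The rows of pck-1, icl-1, aldo-1 and ldh-1 are the reddest in the 9 mutant libraries, and that of pfk-1.2 is the bluest.

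**Figure D2:**
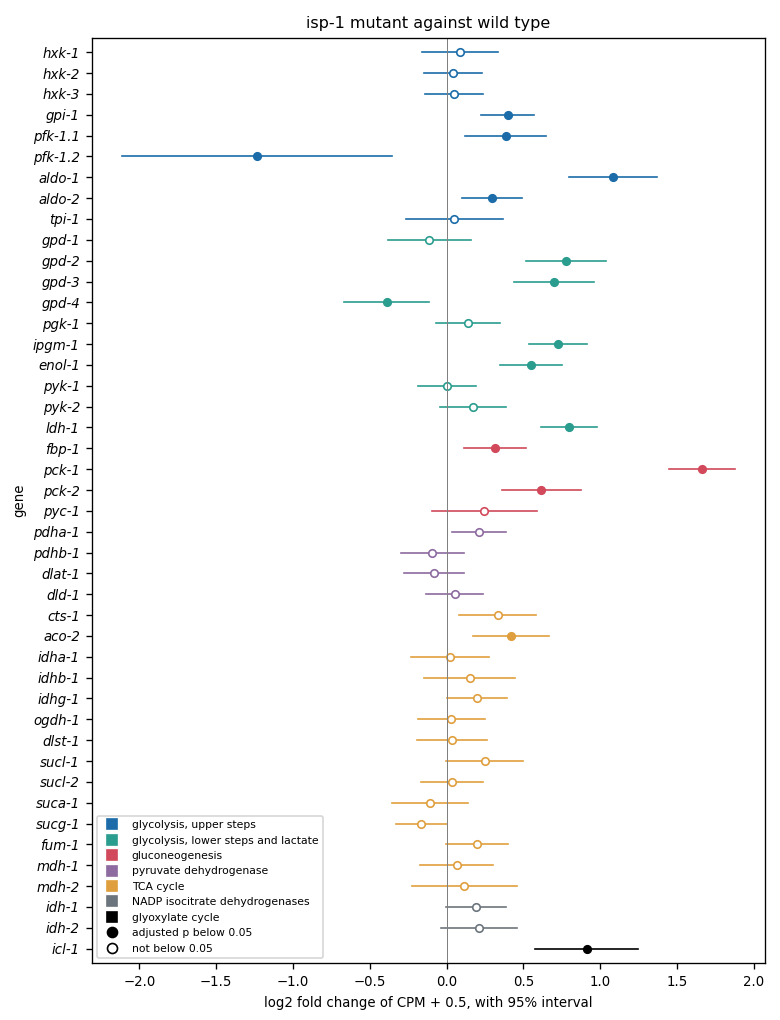
Points are log2 fold changes of isp-1 against wild type with 95% intervals from limma, coloured by pathway step and filled where the adjusted p is below 0.05. Filled points run from -1.23 for pfk-1.2 to 1.66 for pck-1, and all 4 pyruvate dehydrogenase points are open.

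In upper glycolysis the largest rise was that of aldo-1 (WBGene00011474, chromosome III, 13563346 to 13564937 in WBcel235), an aldolase that splits fructose-1,6-bisphosphate into a pair of triose phosphates. Its level was 142.5, 128 and 135 CPM in wild type animals and 299, 292 and 269.9 in isp-1, then 324, 313 and 370.2 in sod-3 doubles and 289, 313 and 430.4 in sod-5 doubles. All 9 mutant libraries lay above the 3 of wild type, and expression in isp-1 was 2.12-fold higher (log2 1.08 with SE 0.13, adjusted p = 0.000181). The second aldolase, aldo-2, moved less. It was at 681, 661 and 740.2 CPM in wild type animals, 867, 847 and 837 in isp-1, 1022, 1023 and 1025 in sod-3 doubles and 1070.4, 1012 and 1159.8 in sod-5 doubles, so the groups did not overlap between wild type, isp-1 and either double mutant. Its rise in isp-1 was 1.23-fold (log2 0.29 with SE 0.09, adjusted p = 0.0362).

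Glucose-6-phosphate isomerase, gpi-1, links the hexokinase product to phosphofructokinase. It was at 192, 187 and 195 CPM in wild type animals, 249, 261 and 248 in isp-1, 250.5, 269 and 259 in sod-3 doubles and 254, 266 and 243 in sod-5 doubles, with every mutant library above wild type and no separation among the mutants. It rose 1.32-fold in isp-1 (log2 0.40 with SE 0.08, adjusted p = 0.00576). The phosphofructokinase gene pfk-1.1, the committed step of glycolysis, was at 105, 111 and 119.7 CPM in wild type animals and 139.9, 149 and 149 in isp-1, groups that did not overlap. It was at 158, 129.7 and 168 in sod-3 doubles and 140.2, 156 and 116 in sod-5 doubles, where replicate 3 lay within the wild type range. Its rise in isp-1 was 1.305-fold (log2 0.38 with SE 0.12, adjusted p = 0.0405).

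The paralog pfk-1.2 went the other way. It was the scarcest of the 44 genes, at 7.51, 7.80 and 7.85 CPM in wild type animals, 2.96, 3.75 and 2.41 in isp-1, 4.13, 1.41 and 7.42 in sod-3 doubles and 1.97, 4.23 and 2.50 in sod-5 doubles. The wild type libraries lay above all others, closely so for replicate 3 of sod-3 doubles. In isp-1 it fell by 1.23 on the log2 scale (limma SE 0.41 and adjusted p = 0.0486), to a 2.35-fold lower level. The summed level of 11 sperm markers, all 11 of them detected, moved alongside: it was 191, 192 and 196 CPM in wild type animals, 76.7, 92.4 and 66.3 in isp-1, 115, 59.1 and 171 in sod-3 doubles and 71.9, 110.3 and 119.6 in sod-5 doubles, replicates in the same order. In isp-1 and in sod-3 doubles the libraries ranked alike by pfk-1.2 and by sperm markers, while in sod-5 doubles the highest pfk-1.2 and the highest sperm marker sum were in different libraries. The part of the sperm content in the level of pfk-1.2 was not tested.

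The 3 hexokinase genes and triosephosphate isomerase gave no call in isp-1. Log2 fold changes were 0.09 for hxk-1 (95% interval -0.16 to 0.33), 0.04 for hxk-2 (-0.14 to 0.23), 0.05 for hxk-3 (-0.14 to 0.24) and 0.05 for tpi-1 (-0.26 to 0.36). The intervals of hxk-2 and hxk-3 exclude a rise as large as the estimate for aldo-2. The calls of pfk-1.1, pfk-1.2 and aldo-2 were lost in most fits without 1 library of wild type or isp-1, so no single library carried them. Their log2 fold changes kept their sign in each of these fits. Fewer of all genes were called in these fits than with every library. Leaving out any of the 6 libraries of wild type and isp-1 brought the adjusted p of pfk-1.1 to 0.0643 (without wild type replicate 3) to 0.142 (without wild type replicate 1). For pfk-1.2 the same omissions gave 0.0662 (without isp-1 replicate 2) to 0.161 (without isp-1 replicate 3), and leaving out sod-3 double replicate 1 or sod-5 double replicate 3, which share the estimate of the spread, gave 0.0644 and 0.0598. For pfk-1.1 the omission of sod-3 double replicate 1 gave 0.0544. For aldo-2 the call was lost without wild type replicate 1 or 2, any isp-1 library or sod-3 double replicate 1, at adjusted p values of 0.0579 to 0.144. With TMM factors the adjusted p of pfk-1.1 and aldo-2 was 0.0877 and 0.0738, and with median centring 0.097 and 0.156. EdgeR gave 0.0867 and 0.0791, and DESeq2 0.0557 and 0.0223. The call of pfk-1.2 was also lost with a pseudocount of 0.1 (0.06) and with ribosomal RNA genes out of the totals (0.0524).

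In lower glycolysis, the glyceraldehyde-3-phosphate dehydrogenase genes split into pairs. This enzyme makes the NADH of glycolysis. The neighbouring X-linked copies gpd-2 (WBGene00001684, 3113443 to 3114689) and gpd-3 (WBGene00001685, 3112091 to 3113341) rose, and the chromosome II copies gpd-1 and gpd-4 did not. Within each pair the copies are nearly identical, so reads may be split between them and the values of a single copy are uncertain. The level of gpd-2 was 255, 254 and 270.3 CPM in wild type animals, 469, 446 and 424 in isp-1, 547, 448 and 579 in sod-3 doubles and 466, 506 and 612 in sod-5 doubles. That of gpd-3 was 305, 289 and 341 CPM in wild type animals, 522, 493 and 501 in isp-1, 575, 483 and 627 in sod-3 doubles and 501, 537 and 638 in sod-5 doubles. For both copies every mutant library exceeded every wild type library. The rises in isp-1 were 1.71-fold for gpd-2 (log2 0.78 with SE 0.12, adjusted p = 0.00101) and 1.62-fold for gpd-3 (log2 0.70 with SE 0.12, adjusted p = 0.00219).

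The gpd-4 gene was at 79.4, 87.4 and 95.4 CPM in wild type animals, 68.3, 65.9 and 65.0 in isp-1, 64.1, 86.3 and 63.4 in sod-3 doubles and 83.8, 66.0 and 76.6 in sod-5 doubles. The isp-1 libraries lay below wild type, and each double mutant overlapped wild type. In isp-1 gpd-4 fell by 0.39 on the log2 scale (limma SE 0.13 and adjusted p = 0.0473), and gpd-1 gave no call (log2 -0.11 with SE 0.12, adjusted p = 0.58). Leaving out any 1 library of wild type or isp-1 raised the adjusted p of gpd-4 to between 0.067 (without wild type replicate 1) and 0.16 (without wild type replicate 3), and leaving out sod-3 double replicate 1 raised it to 0.0548. It was 0.081 with TMM factors, 0.157 with median centring, 0.0755 with edgeR and 0.086 with DESeq2. Among the double mutants, gpd-1 and gpd-4 were highest in replicate 2 of sod-3 doubles (127 and 86.3 CPM) and replicate 1 of sod-5 doubles (130.0 and 83.8 CPM). The summed level of 8 oocyte markers, all 8 detected, was also highest in these libraries of each group, at 5703, 7332 and 5042 CPM in sod-3 doubles and 6772, 5839.7 and 4961 in sod-5 doubles. In wild type it was 5629, 5764 and 6007 and in isp-1 6297, 5654 and 6393 CPM, ranges that overlap. In wild type and in sod-3 doubles the libraries ranked alike by gpd-4 and by oocyte markers. In isp-1, replicate 3 had the highest oocyte sum and the lowest gpd-4. Replicates 2 and 3 of sod-5 doubles ranked in opposite order by the 2 measures. The part of the oocyte content in the level of gpd-4 was not tested.

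The following steps rose in part. Phosphoglycerate mutase, ipgm-1, was at 173, 181 and 197 CPM in wild type animals, 307, 303 and 299 in isp-1, 335, 326 and 366 in sod-3 doubles and 324, 327 and 306 in sod-5 doubles. Enolase, enol-1 (WBGene00011884, chromosome II, 8930997 to 8933799), was at 605, 615 and 697 CPM in wild type animals, 956, 921 and 923 in isp-1, 992, 972 and 1083 in sod-3 doubles and 995, 964 and 1017 in sod-5 doubles. Every mutant library of both genes lay above wild type, and the rises in isp-1 were 1.65-fold for ipgm-1 (log2 0.72 with SE 0.09, adjusted p = 0.000153) and 1.46-fold for enol-1 (log2 0.55 with SE 0.09, adjusted p = 0.00187). Phosphoglycerate kinase, pgk-1, which makes ATP, gave no call in isp-1 (183 ± 19.8 CPM in wild type and 201 ± 10.2 in isp-1, SD, n = 3; log2 0.14 with SE 0.10, adjusted p = 0.355).

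Pyruvate kinase closes glycolysis, and its main gene pyk-1 was called in none of the comparisons. It was at 528, 488 and 479.8 CPM in wild type animals, 492, 501 and 502 in isp-1, 484, 443 and 462 in sod-3 doubles and 463, 487 and 523 CPM in sod-5 doubles. Each mutant group overlapped wild type, and the sod-3 double libraries lay below those of isp-1. The log2 fold change in isp-1 was 0.00 (95% interval -0.19 to 0.19). The minor pyk-2 gene was at 63.3 ± 1.67 and 71.5 ± 3.04 CPM (log2 0.17 with SE 0.10, adjusted p = 0.249), and 11.8% of its exon length is shared with an antisense RNA gene.

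Lactate dehydrogenase, ldh-1 (WBGene00002262, chromosome II, 11724204 to 11726533), had the smallest adjusted p in lower glycolysis. Its level was 63.9, 66.2 and 75.6 CPM in wild type animals, 117, 119.9 and 120.2 in isp-1, 147, 149.6 and 156 in sod-3 doubles and 149, 148 and 153 in sod-5 doubles. The libraries formed 3 tiers without overlap, wild type lowest, isp-1 between, and both double mutants highest. The rise from wild type to isp-1 was 1.74-fold (log2 0.80 with SE 0.08, adjusted p = 5.09e-05).

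Gluconeogenesis held the gene with the largest log2 fold change of the 44 in isp-1 against wild type. The phosphoenolpyruvate carboxykinase gene pck-1 (WBGene00021043, chromosome III, 62888 to 66260) turns oxaloacetate into phosphoenolpyruvate. It was at 102, 91.4 and 108 CPM in wild type animals, 321, 308 and 326 in isp-1, 361, 349 and 414 in sod-3 doubles and 317, 313 and 282 in sod-5 doubles. The lowest mutant library, replicate 3 of sod-5 doubles, was far above the highest of wild type, and expression in isp-1 was 3.16-fold higher (log2 1.66 with SE 0.10, adjusted p = 2.5e-07). Its more abundant paralog pck-2 was at 709.9, 734 and 846 CPM in wild type animals, 1129.6, 1194 and 1180.3 in isp-1, 1399, 1361 and 1442 in sod-3 doubles and 1298, 1339 and 988 in sod-5 doubles. All mutant libraries were above wild type, with sod-5 double replicate 3 the lowest of them, and pck-2 rose 1.53-fold in isp-1 (log2 0.62 with SE 0.12, adjusted p = 0.00473).

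Fructose-1,6-bisphosphatase, fbp-1, reverses the phosphofructokinase step. It was at 137, 139 and 135 CPM in wild type animals, 172, 172 and 168 in isp-1, 177, 163 and 177 in sod-3 doubles and 162, 163 and 201 in sod-5 doubles. No mutant library overlapped wild type, and fbp-1 rose 1.24-fold in isp-1 (log2 0.32 with SE 0.09, adjusted p = 0.0336). Without any 1 library of wild type or isp-1 its adjusted p lay between 0.0822 (without isp-1 replicate 2) and 0.105 (without isp-1 replicate 1). With median centring it was 0.0867. Pyruvate carboxylase, pyc-1, makes oxaloacetate from pyruvate and feeds both gluconeogenesis and the TCA cycle. Its level was 414 ± 14.1 CPM in wild type and 491 ± 19.2 in isp-1, groups that did not overlap, but it gave no call (log2 0.25 with SE 0.16, adjusted p = 0.312). Summed over its 4 genes, the gluconeogenesis step was at 1415 ± 88.2 CPM in wild type and 2148 ± 10.2 in isp-1.

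**Figure D3:**
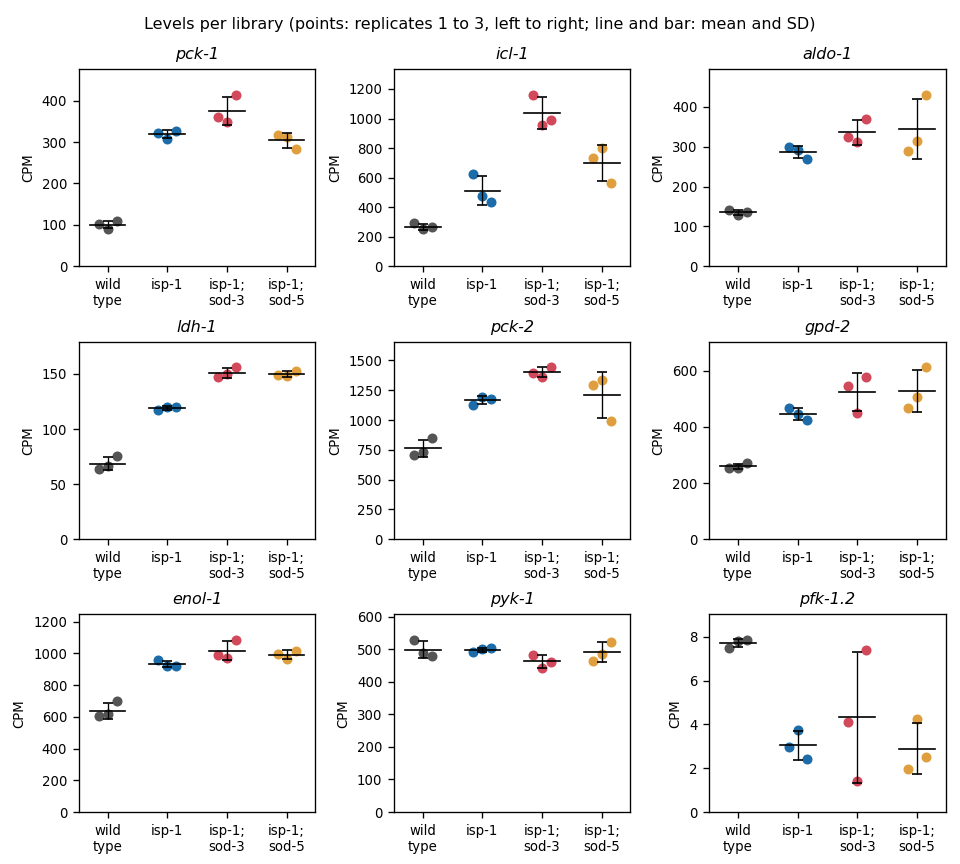
CPM in each library for 9 genes, with points for replicates 1 to 3 from left to right, a line at the mean and a bar of 1 SD; the vertical axes start at 0 and differ between panels. The pck-1, aldo-1, ldh-1, pck-2, gpd-2 and enol-1 panels show every mutant library above wild type, icl-1 is highest in sod-3 doubles, pyk-1 is level, and pfk-1.2 is highest in wild type.

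The pyruvate dehydrogenase complex, which commits pyruvate to acetyl-CoA in the mitochondrion, gave no call in isp-1 for any of its 4 genes. The E1 alpha subunit gene pdha-1 was at 315, 318 and 322 CPM in wild type animals and 378, 359.9 and 367 in isp-1, groups that did not overlap (log2 0.21 with SE 0.08, adjusted p = 0.0885). The E1 beta gene pdhb-1 was at 244, 221 and 221 CPM in wild type animals and 210.3, 220.2 and 212 in isp-1, with every isp-1 library below wild type (log2 -0.09 with SE 0.09, adjusted p = 0.536). The E2 gene dlat-1 and the E3 gene dld-1, whose product also serves the 2-oxoglutarate dehydrogenase complex, had log2 fold changes of -0.08 (95% interval -0.28 to 0.11) and 0.05 (-0.13 to 0.24). The summed level of the 4 genes was 1193 ± 31.0 CPM in wild type and 1221 ± 28.8 in isp-1. Of the exon length of pdha-1, 12.8% is shared with gpcp-2 on the opposite strand, and the sources used here do not say whether counting used strand.

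In the TCA cycle only mitochondrial aconitase, aco-2 (WBGene00000041, chromosome III, 7973717 to 7977355), passed the threshold in isp-1. It was at 783, 780.1 and 903 CPM in wild type animals, 1109, 1088 and 1095 in isp-1, 1281, 1261 and 1393 in sod-3 doubles and 1217, 1264 and 966 in sod-5 doubles. The mutant libraries all exceeded wild type, and the lowest of them was sod-5 double replicate 3. Expression in isp-1 was 1.34-fold higher (log2 0.42 with SE 0.11, adjusted p = 0.0224), and the adjusted p was 0.0532 to 0.0902 when wild type replicate 1 or 2 or any isp-1 library was left out. The call of aco-2 was also lost with TMM factors (adjusted p = 0.068), median centring (0.083) and edgeR (0.069), and held with DESeq2 (0.031). Citrate synthase, cts-1, the entry enzyme, was at 903, 842 and 890.4 CPM in wild type animals and 1169, 1065 and 1087 in isp-1, groups that did not overlap, and missed the threshold (log2 0.33 with SE 0.12, adjusted p = 0.0604).

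The other 12 TCA genes had log2 fold changes in isp-1 between -0.16 for sucg-1 and 0.25 for sucl-1. For the catalytic subunit of the NAD-dependent isocitrate dehydrogenase, idha-1, the value was 0.02 (95% interval -0.23 to 0.28), and the values of its partner subunits were 0.15 for idhb-1 (-0.15 to 0.45) and 0.20 for idhg-1 (0.00 to 0.40). The 2-oxoglutarate dehydrogenase genes ogdh-1 and dlst-1 stood at 0.03 (-0.19 to 0.25) and 0.04 (-0.19 to 0.27). Their intervals exclude changes as large as that of aco-2.

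Succinyl-CoA ligase, which makes ATP or GTP depending on its beta subunit, had values of unlike sign among its genes. Both beta subunit genes were lower in every isp-1 library than in wild type: the ATP-specific suca-1 was at 199.9, 195 and 202 CPM in wild type animals and 179, 184 and 191 in isp-1 (log2 -0.11 with SE 0.11, adjusted p = 0.566), and the GTP-specific sucg-1 at 126, 128 and 123 and 113, 109 and 114 CPM (log2 -0.16 with SE 0.08, adjusted p = 0.16). The alpha subunit gene sucl-1 was at 124, 132 and 146 and 169.7, 155 and 154 CPM, higher in every isp-1 library (log2 0.25 with SE 0.12, adjusted p = 0.152), and sucl-2 overlapped between the groups (log2 0.04 with SE 0.09, adjusted p = 0.826). None of these 4 passed the test, although sucg-1 lay below wild type in all 9 mutant libraries (log2 -0.22 in sod-3 doubles and -0.14 in sod-5 doubles, adjusted p = 0.0723 and 0.198). Fumarase, fum-1, was at 293 ± 13.5 and 336 ± 3.65 CPM (log2 0.20 with SE 0.09, adjusted p = 0.16). The malate dehydrogenases, cytosolic mdh-1 and mitochondrial mdh-2, had log2 fold changes of 0.07 (-0.17 to 0.30) and 0.12 (-0.23 to 0.46). Summed over its 14 genes, the TCA cycle was at 5165 ± 156 CPM in wild type and 5853 ± 143 in isp-1. Cytosolic mdh-1 makes up 436 and 458 CPM of these sums.

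The NADP-dependent isocitrate dehydrogenases, which make NADPH outside the cycle itself, gave no call. Cytosolic idh-1 was at 451, 439 and 462 CPM in wild type animals and 508, 513 and 525 in isp-1 (log2 0.19 with SE 0.09, adjusted p = 0.155). Mitochondrial idh-2 was at 45.8, 44.8 and 45.3 and 50.4, 54.4 and 52.6 CPM (log2 0.21 with SE 0.11, adjusted p = 0.226). In both, every isp-1 library lay above wild type.

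The glyoxylate cycle gene icl-1 (WBGene00001564, chromosome V, 724332 to 728004) encodes a bifunctional protein with isocitrate lyase and malate synthase activity. It was at 291, 250.4 and 266 CPM in wild type animals, 624, 479 and 434 in isp-1, 1162, 958 and 989 in sod-3 doubles and 734, 802 and 562 in sod-5 doubles. Wild type was lowest without overlap, sod-3 doubles highest without overlap, and isp-1 and sod-5 doubles overlapped. Expression in isp-1 was 1.88-fold higher (log2 0.91 with SE 0.16, adjusted p = 0.00196).

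Where a step has several genes, the balance between them was compared within each library, which cancels library depth, as a description without a test. The ratio of aldo-1 to aldo-2 was 0.183 to 0.209 in wild type and 0.322 to 0.345 in isp-1. The ratio of pck-1 to pck-2 was 0.125 to 0.143 and 0.258 to 0.284. That of pfk-1.2 to pfk-1.1 was 0.0656 to 0.0717 and 0.0162 to 0.0251. Taking the near-identical copies together, the sum of gpd-2 and gpd-3 was 2.68 to 3.02 times that of gpd-1 and gpd-4 in wild type and 5.31 to 5.54 times in isp-1, and none of these 4 ratios overlapped between the groups. In both aldolase and phosphoenolpyruvate carboxykinase the minor gene gained on the major gene, and in phosphofructokinase it lost.

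Among other paralogs, the hxk-1 to hxk-2 ratio was 3.47 ± 0.242 in wild type and 3.58 ± 0.183 in isp-1 (mean and SD of 3 libraries), that of idh-1 to idh-2 9.95 ± 0.215 and 9.83 ± 0.354, and that of mdh-2 to mdh-1 1.52 ± 0.0936 and 1.57 ± 0.0567. The pyk-2 to pyk-1 ratio was 0.127 ± 0.00644 and 0.144 ± 0.00616, and the sucl-1 to sucl-2 ratio 0.839 ± 0.0231 and 0.975 ± 0.0819. The ratio of the near-identical gpd-1 and gpd-4, uncertain where reads may be split, was 1.296 to 1.39 in wild type and 1.57 to 1.68 in isp-1. In the last 3 pairs the ranges of wild type and isp-1 did not overlap.

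Levels of different genes were set side by side per kilobase of exon. In wild type cts-1 was the most abundant at 514 CPM per kb, followed by aldo-2 at 511, mdh-2 at 507, enol-1 at 402 and mdh-1 at 379.8. The SDs of the top 3 (18.8, 30.3 and 39.5 CPM per kb) exceed the differences between them, so their order is not resolved. The lowest were pfk-1.2 at 3.20 and pfk-1.1 at 31.4 CPM per kb, then idh-2 at 31.6. In wild type icl-1 was at 86.0 CPM per kb, rank 33 of 44, and pck-1 at 48.8, rank 38. In sod-3 doubles they were at 331 and 182 CPM per kb. All 44 genes together took 1.27% of the reads in wild type, 1.57% in isp-1, 1.80% in sod-3 doubles and 1.75% in sod-5 doubles.

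Between isp-1 and either double mutant, icl-1 in sod-3 doubles was the only call among the 44 genes, and many small estimates were positive. Against isp-1, 1 of the 44 genes rose in sod-3 doubles and none fell, where 1.08% of all genes tested were called (0.557% higher, 0.528% lower). In sod-5 doubles limma called 0 of the 44, where 1.21% of all genes were called (0.642% higher, 0.564% lower). At an unadjusted p under 0.05, limma counted 10 of the 44 in sod-3 doubles and 10 in sod-5 doubles, all higher, where 8.68% and 11.8% of all genes were at that level. EdgeR counted 3 and 4 (all genes, 10.1% and 11%) and DESeq2 4 and 8 (10.1% and 10.3%), again all higher. The counts of edgeR in both comparisons and of DESeq2 in sod-3 doubles are not above those shares, and both tools called 0 in sod-5 doubles after adjustment. The median log2 fold change of the 44 genes was 0.12 in sod-3 doubles and 0.10 in sod-5 doubles, against 0.03 and 0.05 over all genes tested, and 35 and 36 of the 44 were above 0. Of all 14013 genes tested, 7887 and 8264 were above 0. TMM factors moved the log2 fold changes of all genes by a median of -0.0156 in sod-3 doubles and -0.0805 in sod-5 doubles. Both comparisons use the same isp-1 libraries, so their values are not independent of each other.

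The icl-1 gene rose 2.04-fold from isp-1 to sod-3 doubles (log2 1.03 with SE 0.16, adjusted p = 0.00326), on top of its rise over wild type. The call held under all 26 alternatives, with adjusted p values up to 0.0308. From isp-1 to sod-5 doubles the estimate was 0.45 (95% interval 0.12 to 0.78, adjusted p = 0.25). Without sod-5 double replicate 3 it was 0.60 (adjusted p = 0.0756), and with the trend on exon length removed 0.52 (adjusted p = 0.0532). The direct contrast of sod-3 doubles with sod-5 doubles gave 0.58 for icl-1 (95% interval 0.24 to 0.91) with an adjusted p of 0.747, so a difference between the double mutants was not shown after adjustment over all genes.

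The ldh-1 gene did not pass in either double mutant: log2 0.34 in sod-3 doubles (SE 0.08, adjusted p = 0.0888) and 0.33 in sod-5 doubles (SE 0.08, adjusted p = 0.0837), with all 6 double mutant libraries above the 3 of isp-1. Without sod-5 double replicate 3, which is in neither group but shares in the estimate of the spread, 228 of all genes tested were called in sod-3 doubles against isp-1, where 152 were with it, and 3 of the 44 were among them: icl-1, ldh-1 (adjusted p = 0.04) and pyc-1 (log2 0.40, adjusted p = 0.0192). Pyruvate carboxylase pyc-1 was at 513, 480.2 and 479 CPM in isp-1, 703, 608 and 639 in sod-3 doubles and 589, 659 and 379 in sod-5 doubles. Every sod-3 double library lay above isp-1, and so did sod-5 double replicates 1 and 2, while replicate 3 lay below. With all libraries its log2 fold changes were 0.40 (adjusted p = 0.445) and 0.11 (adjusted p = 0.845).

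Of the remaining genes, aldo-2 was higher in every double mutant library than in isp-1 (log2 0.27, adjusted p = 0.298 in sod-3 doubles and 0.34, adjusted p = 0.0992 in sod-5 doubles). The pyruvate dehydrogenase gene pdhb-1 had a log2 fold change of 0.13 in sod-3 doubles (95% interval -0.08 to 0.33) and 0.30 in sod-5 doubles (0.10 to 0.51). Pyruvate kinase pyk-1 was at -0.11 (-0.30 to 0.08) and -0.02 (-0.21 to 0.17). Outside icl-1 and pyc-1, no estimate against isp-1 exceeded the 0.34 of ldh-1 and aldo-2 in either direction. The widest intervals were those of pfk-1.2, -0.64 to 1.11 in sod-3 doubles and -0.97 to 0.78 in sod-5 doubles, so that changes of this size could not be seen in that gene.

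**Figure D4:**
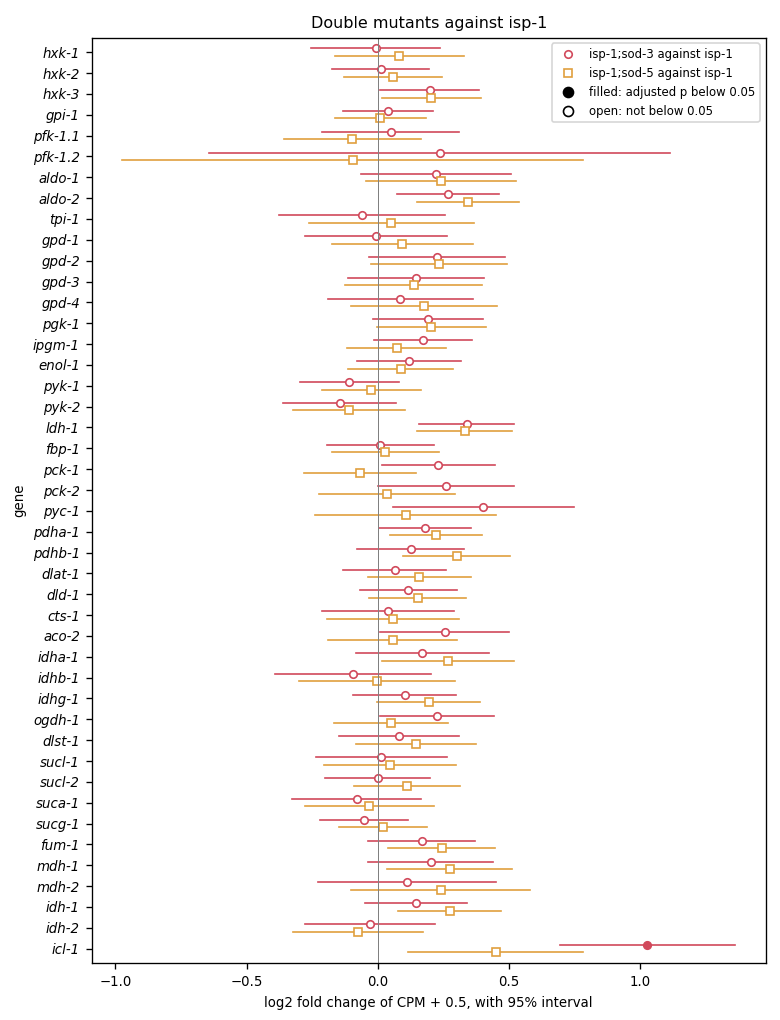
Log2 fold changes of each double mutant against isp-1 with 95% intervals from limma, circles for sod-3 doubles and squares for sod-5 doubles, filled where the adjusted p is below 0.05. The filled circle of icl-1 at 1.03 is the only filled point, and most others lie between 0 and 0.34.

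Between the double mutants 0 of the 44 genes were called by limma, edgeR or DESeq2, where limma called 0.107% of all genes tested (0.0285% higher in sod-3 doubles, 0.0785% lower). At an unadjusted p under 0.05 each tool counted 2, both higher in sod-3 doubles, which is near the share of all genes (3.77% by limma, 4.5% by edgeR and 4.23% by DESeq2). By limma these were icl-1 and pck-1, the latter at log2 0.30 (95% interval 0.09 to 0.51, adjusted p = 0.92). Without sod-5 double replicate 3 these contrasts were 0.43 for icl-1 and 0.25 for pck-1. Of the 44 estimates 14 were above 0, where 6320 of all 14013 genes tested were. Without sod-5 double replicate 3 the count among the 44 was 29, so the sign of the smaller differences between the double mutants rested on that library.

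In replicate 3 of sod-5 doubles the 44 genes deviated with their length. Against its group mates it was highest for 28 genes, lowest for 10 and between them for 6. Among the 22 genes shorter than the median exon length of the set it was highest for 18 and lowest for 1, and among the 22 others highest for 10 and lowest for 9. The long pyc-1 (4003 bases of exon) was at 379 CPM in it, a difference of -0.72 on the log2 scale from the mean of its group mates. The corresponding differences were -0.45 for icl-1 (3131 bases) and -0.42 for pck-2 (3318 bases). The short mdh-2 (1311 bases) differed by 0.59, tpi-1 (1170 bases) by 0.57 and aldo-1 (1253 bases) by 0.52. The slope over the 44 genes was -0.32 per doubling of length, against -0.03 to 0.14 in the other 11 libraries. Without this library the log2 fold change of aldo-1 in sod-5 doubles against isp-1 went from 0.24 to 0.07, that of mdh-2 from 0.24 to 0.04, that of pck-2 from 0.04 to 0.17 and that of pyc-1 from 0.11 to 0.34, and none of the 44 was called with or without it.

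**Figure D5:**
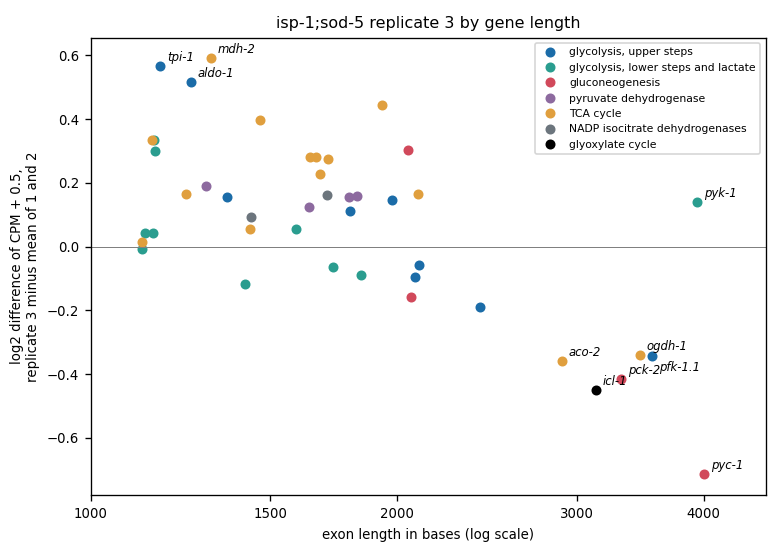
Each point is a gene; the horizontal axis is its exon length on a log scale and the vertical axis the log2 difference of CPM + 0.5 between replicate 3 of sod-5 doubles and the mean of replicates 1 and 2. Short genes lie above 0 for the most part, and among genes above 2500 bases all but pyk-1 lie below 0.

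Against wild type, icl-1, pck-1 and ldh-1 rose in both double mutants, and some genes of the TCA cycle were called. The phosphofructokinase gene pfk-1.1 passed in sod-3 doubles (log2 0.43 with SE 0.12, adjusted p = 0.0275) and missed the threshold in sod-5 doubles (log2 0.29 with SE 0.12, adjusted p = 0.103). Its call in sod-3 doubles was lost with TMM factors (adjusted p = 0.0679), edgeR (0.0604) and median centring (0.0781). All 3 mutant groups are compared with the same wild type libraries, so agreement between these comparisons is not independent. In sod-3 doubles, 21 of the 44 genes rose and 0 fell, where 17% of all genes were called (10.4% higher, 6.57% lower). In sod-5 doubles, 20 rose and 1, pfk-1.2, fell, where 24.3% of all genes were called (14.1% higher, 10.2% lower). The median log2 fold change of the 44 genes was 0.27 and 0.32, against 0.01 and 0.04 over all genes tested. The count for sod-3 doubles was 13 without wild type replicate 2 or without sod-3 double replicate 1. Of all genes called, 61.3% were higher in sod-3 doubles and 58.0% in sod-5 doubles. These shares were 51.2% and 44.5% with TMM factors, 44.7% and 43.2% with median centring, and 50.9% and 52.1% with quantile normalization. Among the 44 genes, the calls were 17 higher and 0 lower in sod-3 doubles and 14 higher and 1 lower in sod-5 doubles with TMM factors, and 12 higher and 0 lower and 12 higher and 1 lower with median centring.

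By step, sod-3 doubles had 4 higher calls of 9 in upper glycolysis, 6 of 10 in lower glycolysis, 4 of 4 in gluconeogenesis, 1 of 4 in pyruvate dehydrogenase, 4 of 14 in the TCA cycle and 1 of 2 among the NADP-dependent isocitrate dehydrogenases, and icl-1. In sod-5 doubles the numbers were 3, 6, 3, 1, 5 and 1, and icl-1. The 5 in the TCA cycle include cytosolic mdh-1. For icl-1 the rise over wild type was 3.84-fold in sod-3 doubles (log2 1.94 with SE 0.16, adjusted p = 2.62e-06) and 2.57-fold in sod-5 doubles (log2 1.36 with SE 0.16, adjusted p = 5.58e-05). For pck-1 it was 3.71-fold (log2 1.89 with SE 0.10, adjusted p = 4.31e-08) and 3.02-fold (log2 1.59 with SE 0.10, adjusted p = 1.84e-07). For ldh-1 it was 2.197-fold (log2 1.136 with SE 0.08, adjusted p = 1.25e-06) and 2.19-fold (log2 1.13 with SE 0.08, adjusted p = 1.22e-06).

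Several genes of pyruvate and TCA oxidation, and cytosolic idh-1, missed the threshold in isp-1 and passed it in both double mutants. For pdha-1 the log2 fold change against wild type was 0.21 in isp-1, 0.39 in sod-3 doubles (adjusted p = 0.00593) and 0.43 in sod-5 doubles (adjusted p = 0.00269). For fumarase, fum-1, it was 0.20, 0.37 (adjusted p = 0.0183) and 0.44 (adjusted p = 0.00526), and for idhg-1 0.20, 0.30 (0.0373) and 0.39 (0.00821). For citrate synthase, cts-1, it was 0.33, 0.37 (adjusted p = 0.0433) and 0.39 (adjusted p = 0.0277), and for cytosolic idh-1 0.19, 0.34 (0.0218) and 0.47 (0.00312). None of these genes was called between a double mutant and isp-1, so a step from isp-1 to the double mutants was not shown for them. In sod-3 doubles leaving out 1 library ended the calls of fum-1 (wild type replicate 2 or 3, or sod-3 double replicate 1; adjusted p = 0.0554 to 0.0851), idh-1 (wild type replicate 1 or 2, or sod-3 double replicate 1; 0.0501 to 0.094), idhg-1 (any wild type or isp-1 library, or sod-3 double replicate 1 or 3; 0.0556 to 0.126) and cts-1 (these libraries or sod-5 double replicate 2; 0.0511 to 0.149). In sod-5 doubles it ended that of cts-1 (any wild type library or sod-5 double replicate 3; 0.0508 to 0.102), and the calls of pdha-1 in both groups and of fum-1, idhg-1 and idh-1 in sod-5 doubles held without any 1 library. Median centring also ended the calls of pdha-1 in both groups (adjusted p = 0.0729 in sod-3 doubles and 0.0562 in sod-5 doubles), of fum-1, idh-1 and idhg-1 in sod-3 doubles (0.0633, 0.112 and 0.12), of idhg-1 in sod-5 doubles (0.0505) and of cts-1 in both (0.0558 and 0.056). In sod-3 doubles, idh-1 and idhg-1 were lost with TMM factors (0.0548 and 0.0527) and with edgeR (0.0526 and 0.0509), and in sod-5 doubles so was cts-1 (0.057 and 0.0589). Phosphoglycerate kinase, pgk-1, passed in sod-3 doubles (log2 0.33, adjusted p = 0.0339) and in sod-5 doubles (log2 0.34, adjusted p = 0.0222). Its calls were lost without wild type replicate 1 or 2, without isp-1 replicate 2 or 3 or sod-3 double replicate 1 or 3 in the first case (adjusted p = 0.0507 to 0.144), and without sod-5 double replicate 1 or 2 in the second (0.0546 to 0.102 with those of wild type). Cytosolic malate dehydrogenase, mdh-1, passed in sod-5 doubles (log2 0.34, adjusted p = 0.0384) and missed in sod-3 doubles (log2 0.27, adjusted p = 0.106). The first was lost without any wild type library, isp-1 replicate 2 or 3, sod-3 double replicate 1, or sod-5 double replicate 1 or 3 (adjusted p = 0.0525 to 0.127). With TMM factors, edgeR and median centring the adjusted p of mdh-1 in sod-5 doubles was 0.121, 0.114 and 0.159. In the same order that of pgk-1 was 0.0998, 0.1035 and 0.169 in sod-3 doubles and 0.159, 0.161 and 0.1805 in sod-5 doubles. The pyc-1 gene passed in sod-3 doubles (log2 0.65 with SE 0.16, adjusted p = 0.0145), though not without wild type replicate 2 or sod-3 double replicate 1 (adjusted p = 0.0587 to 0.0598), and not in sod-5 doubles (log2 0.35 with SE 0.16, adjusted p = 0.125), where replicate 3 lay below wild type.

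Among 5 neighbouring pathway lists, 9 of 41 genes were called in isp-1, 6 higher and 3 lower, a share near the 20.0% of all genes tested. None of 5 genes of succinate dehydrogenase, the TCA enzyme that is also respiratory complex II, was called. Of 7 pentose phosphate genes, 2 rose and 0 fell: T25B9.9, which encodes a 6-phosphogluconate dehydrogenase (log2 0.50 with SE 0.09, adjusted p = 0.00234), and F08F8.7, which encodes a ribulose-phosphate epimerase (log2 0.49 with SE 0.11, adjusted p = 0.00756). Of 6 genes of pyruvate import and of the regulators of phosphofructokinase and pyruvate dehydrogenase, 1 rose, pfkb-1.2 (log2 0.32 with SE 0.09, adjusted p = 0.0334). Of 13 genes of glycogen and trehalose metabolism, 1 rose and 2 fell. The trehalose synthase gene tps-1 rose (log2 0.68 with SE 0.15, adjusted p = 0.00808), glycogen synthase gsy-1 fell by 0.28 on the log2 scale (adjusted p = 0.0362) and the trehalase gene tre-5 fell by 0.56 (adjusted p = 0.047). Of 10 genes of the glycerol, malate and aspartate routes, 2 rose and 1 fell: mitochondrial aspartate aminotransferase got-2.2 (log2 0.42 with SE 0.09, adjusted p = 0.00794) and cytosolic aconitase aco-1 (log2 0.39 with SE 0.10, adjusted p = 0.0179) rose, and the glycerol-3-phosphate dehydrogenase gene gpdh-1 fell by 1.02 (adjusted p = 0.0435). The calls of T25B9.9, F08F8.7, tps-1 and got-2.2 held without any 1 library. Those of gsy-1 and gpdh-1 were lost without any 1 library of wild type or isp-1 or sod-3 double replicate 1 (adjusted p = 0.0532 to 0.133 and 0.0531 to 0.132), that of tre-5 without the same libraries or sod-5 double replicate 2 (0.0502 to 0.133), that of pfkb-1.2 without wild type replicate 1 or 2 or any isp-1 library (0.0521 to 0.139) and that of aco-1 without wild type replicate 2 or isp-1 replicate 3 (0.0867 and 0.086).

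In the same lists, 1 gene was called in sod-3 doubles against isp-1 and 2 in sod-5 doubles, where 1.08% and 1.21% of all genes were called. The mitochondrial pyruvate carrier gene mpc-1, whose product brings pyruvate to the dehydrogenase complex, was at 80.1, 91.7 and 86.0 CPM in wild type animals, 76.6, 77.4 and 72.1 in isp-1, 115, 95.3 and 110.5 in sod-3 doubles and 112, 127 and 149 in sod-5 doubles. Every isp-1 library was below every other library, and the rise from isp-1 to sod-5 doubles was 1.70-fold (log2 0.76 with SE 0.11, adjusted p = 0.00264). By limma it was 0.66 on the log2 scale without sod-5 double replicate 3 (adjusted p = 0.0068). With the trend on exon length removed it was 0.58 (adjusted p = 0.00326). In sod-3 doubles mpc-1 missed the threshold (log2 0.50 with SE 0.11, adjusted p = 0.0553), and a difference between the double mutants was not shown (log2 of sod-3 doubles against sod-5 doubles -0.27, adjusted p = 0.92). Its partner mpc-2 was at 87.4, 84.7 and 74.3 CPM in isp-1 and 108, 111 and 157 in sod-5 doubles (log2 0.59 with SE 0.13, adjusted p = 0.0476), a call that was lost without any 1 isp-1 or wild type library, sod-3 double replicate 1, or sod-5 double replicate 2 or 3, at adjusted p values of 0.0539 to 0.233. The log2 fold change of mpc-2 was 0.41 without sod-5 double replicate 3 and 0.40 with the length trend removed. In sod-3 doubles the trehalase gene tre-5 rose over isp-1 (log2 1.12 with SE 0.18, adjusted p = 0.00625), from 1.48, 1.57 and 1.49 to 3.39, 3.82 and 4.52 CPM, groups that did not overlap. That call was lost when only these groups were fitted (adjusted p = 0.0727), and the gene did not pass a filter of more than 5 CPM in at least 3 libraries.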

How the data were processed

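The deposited matrix holds CPM, the count of reads per 1000000 reads in genes, made by the authors, for 14326 genes in 12 libraries, each column summing to 1000000. Per the submitters' processing notes, the tools included Subread 1.5.0, featureCounts 1.4.6 and edgeR 3.14.0 (R 3.3.0), and the build was WBcel235. Per the labels' protocols, libraries were made with a Kapa stranded mRNA kit. All values (100.0%) were whole multiples of the value of 1 read within 0.001 reads, which gave back read counts and totals of 5438798 to 155071752 per library. Gene names, coordinates and exon lengths come from Ensembl release 115 of WBcel235.

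The test was run on the 14013 genes with more than 1 CPM in 3 or more libraries, in R 4.3.3 with limma 3.58.1 (trended, robust eBayes) on values of log2(CPM + 0.5). One fit of all libraries with genotype as factor served 6 comparisons, with two-sided p-values adjusted by Benjamini-Hochberg within each and 0.05 as threshold. Fold changes are on the log2(CPM + 0.5) scale, which understates those of scarce genes, and intervals and SE are those of limma. The fit was tested on simulated data with no trend on exon length and no library that stood apart. That test does not cover such features. Alternatives were count tests on the recovered reads with edgeR 4.0.16 and with DESeq2 1.42.0 (3010 and 3388 genes called in isp-1 against wild type, where limma called 2798), other scalings, filters and pseudocounts, library weights, a replicate block, leaving out each library, and a removal of the trend on exon length that was chosen after seeing the data. No 2 libraries of a group agreed within sampling noise, and none was merged.

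The 44 genes and the neighbouring lists were chosen with earlier results of these data known. Values in all 12 libraries are printed for genes called in isp-1 against wild type, up to 16 by adjusted p, and for genes called between mutants, up to 10. The other genes are given by means, group values or intervals, and up to 4 called genes are named per neighbouring list. The libraries of mpc-1, mpc-2 and tre-5, and of pyk-1 and pyc-1, were printed after their values were seen. From the lists, fgt-1, ugp-1, got-1.1 and got-1.3 were not matched to the matrix.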

Additional observations from a re-analysis of the deposited data

How the results depend on the processing

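No called change among the 44 genes turned direction under any of the 26 alternatives. In isp-1 against wild type the count of 16 was 10 with median centring, 28 with library weights (whose estimation stopped before its tolerance was reached) and 10 to 18 when 1 library was left out. Under the same 3 kinds of alternative the count of 1 in sod-3 doubles against isp-1 was 1, 8 and 1 to 3, and the count of 21 in sod-3 doubles against wild type was 12, 36 and 13 to 25. For sod-5 doubles against wild type the count of 21 was 13 with median centring, 30 with library weights and 16 to 23 without 1 library. In sod-5 doubles against isp-1 and between the double mutants the count was 0 under all alternatives. EdgeR and DESeq2 counted 13 and 15 in isp-1, 17 and 21 in sod-3 doubles and 15 and 20 in sod-5 doubles against wild type. The replicate block gave 12, 1, 0, 0, 17 and 20 in the 6 comparisons, in the order isp-1 against wild type, each double mutant against isp-1, the double mutants against each other, and each double mutant against wild type. After the group mean of each gene was subtracted, same-numbered libraries of different groups correlated at -0.545 to 0.329, so the numbers did not pair them. Calls held under all alternatives for 9 of 16 genes in isp-1, 11 of 21 in sod-3 doubles and 12 of 21 in sod-5 doubles against wild type. The call of gpi-1 in isp-1 was lost with median centring alone (adjusted p = 0.0581). The cause of these differences was not tested. Over all genes, library weights called 7284 in isp-1 against wild type where the unweighted fit called 2798, and 5702 were called when only these groups were fitted. Weights called 1209 in sod-3 doubles against isp-1, where the unweighted fit called 152. Against wild type they called 7455 in sod-3 doubles and 4782 in sod-5 doubles, where it called 2379 and 3402. In isp-1 against wild type, median centring called 3035, and leaving out 1 library 1088 to 3581. In sod-3 doubles against isp-1 these counts were 217 and 89 to 228. Against wild type they were 2795 and 1211 to 3525 in sod-3 doubles, and 3421 and 1865 to 4162 in sod-5 doubles. The pfk-1.2 gene had 21 reads in 3 of the libraries, and its level within sod-3 doubles ran from 1.41 to 7.42 CPM. How far depth limits what can be seen in that gene was not tested.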
